A study of Sus scrofa with 15 samples.

Results

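Expression of 5 genes of inflammation was followed in the corpus cavernosum of pigs, the spongy erectile tissue of the penis, by sequencing of its RNA. They were selected by gene symbol and are the 3 calgranulins S100A8, S100A9 and S100A12, the cytokine receptor gene CSF3R and the collagenase gene MMP8, 5 of 26654 genes in the deposited tables. The 15 samples form 5 groups of 3: normal tissue, tissue labelled defect, 2 labelled implantation A and implantation B, and 1 labelled ECs+ implantation. One set of comparisons joins the normal, defect and implantation A groups, and another pairs ECs+ implantation with implantation B. Only group names were given, with no strain, age, time or implant material, so the meaning of the letters A and B and of ECs is unknown here. Whether the replicate libraries came from different pigs is not stated, and p-values therefore reflect only how far these libraries scatter, possibly for technical reasons.

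S100A8 and S100A9 are small calcium-binding proteins that pair as calprotectin, a complex that binds zinc and manganese and fills much of the cytosol of neutrophils and monocytes. Stratified squamous epithelium also makes them, most of all when it is injured or inflamed, and S100A12 is found in the same myeloid cells and in epithelium. CSF3R is the receptor of granulocyte colony-stimulating factor, the cytokine that drives neutrophil formation, and MMP8 is the collagenase stored in neutrophil granules. The calgranulins are thus shared between neutrophils and epithelium, while CSF3R and MMP8 are the genes used here to mark neutrophils. In bulk tissue, fewer cells of a type and less RNA per cell cannot be told apart.

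On the pig assembly Sscrofa11.1 the calgranulin genes lie side by side on chromosome 4. S100A8 spans chr4:96209670-96210603, S100A12 spans chr4:96225691-96227030 and S100A9 spans chr4:96236114-96238989. CSF3R lies at chr6:92550159-92565798 and MMP8 at chr9:33384034-33397637.

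Total counts ran from 17234169 to 19644793 in 13 libraries, but defect 1 and defect 2 held only 207769 and 250178 counts. Defect 3 held 97.5% of the counts of its group, so values of rare genes in defect rest mostly on it. A count of 3 corresponds to 14.4 CPM (counts scaled to the library total) in defect 1 and to 0.169 CPM in defect 3. The second description line of each ECs+ implantation sample names the third normal sample instead, so that group is known by its titles and column names. Markers of the labelled tissue were present in every group, with group means of 12 summed endothelial genes between 915 and 2927 TPM (a level corrected for gene length and library total) and of 8 smooth muscle genes between 2659 and 6463 TPM.

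The calgranulins were among the abundant transcripts of 4 groups and nearly missing from ECs+ implantation. Together they made up 0.508 to 0.528% of all TPM in the normal libraries, 1.15 to 1.44% in defect, 1.25 to 1.30% in implantation A and 1.52 to 1.53% in implantation B. In the ECs+ implantation libraries the share was 0.00108 to 0.00213%. CSF3R and MMP8 were rare everywhere, with summed levels between 0.222 and 15.3 TPM in single libraries.

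S100A8 stood at 854, 909 and 890 TPM in the normal libraries and at 2631, 2907 and 3219 TPM in defect 1, 2 and 3. In implantation A it stood at 2507, 2534 and 2442 TPM and in implantation B at 2857, 2935 and 2888 TPM. In ECs+ implantation it stood at 0.680, 1.39 and 0.646 TPM, from 1, 2 and 1 counts. All 9 libraries of defect, implantation A and implantation B lay above all 3 normal libraries, and all ECs+ implantation libraries lay far below both.

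S100A9 stood at 803, 764 and 762 TPM in normal and at 2282, 1839 and 2365 TPM in defect. It stood at 2089, 2083 and 2061 TPM in implantation A and at 2572, 2598 and 2543 TPM in implantation B. The ECs+ implantation libraries held 14, 6 and 25 counts, or 2.77, 1.22 and 4.76 TPM. The 3 implantation A libraries fell inside the range of defect, where the shallow defect 2 was lowest, and implantation B lay above both.

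S100A12 was the most abundant of the 5 genes in every library. It stood at 3424, 3608 and 3496 TPM in normal and at 8654, 6706 and 8794 TPM in defect. Implantation A held 8272, 8421 and 7999 TPM and implantation B 9780, 9675 and 9816 TPM. In ECs+ implantation it stood at 9.61, 8.18 and 15.9 TPM, from 12, 10 and 21 counts, and no library of that group came near any other.

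**Figure D1:**
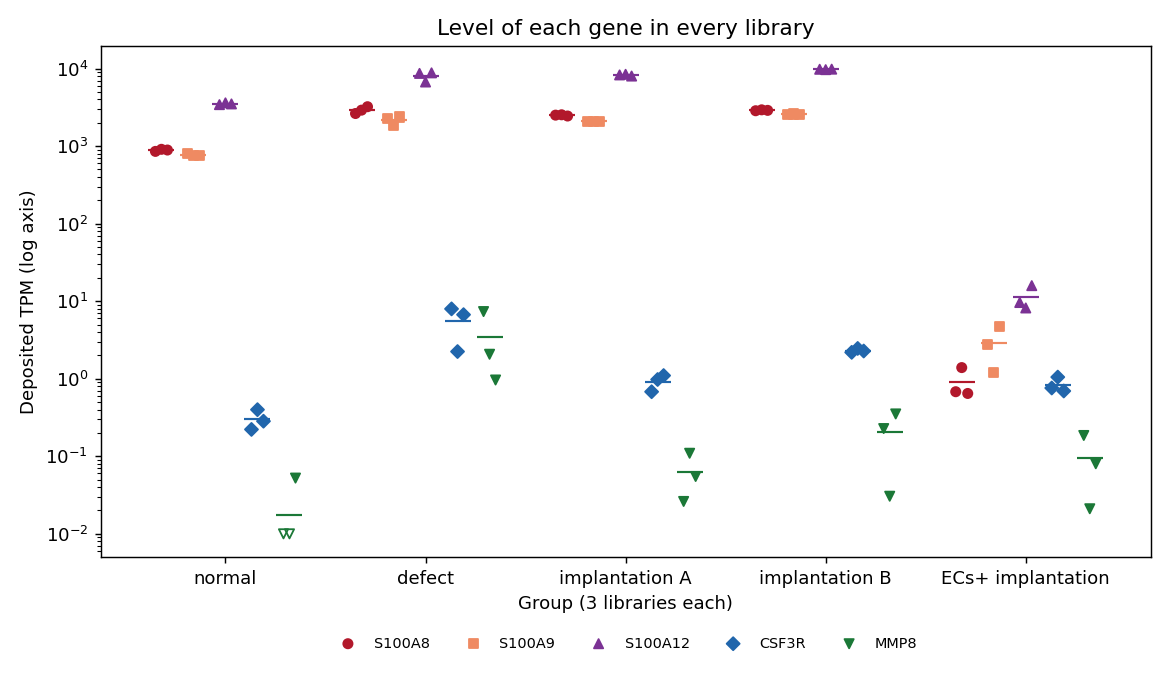
TPM of the 5 genes (log axis) in each of the 15 libraries by group, with a line at each group mean. Open symbols are MMP8 libraries with 0 counts, drawn at the bottom of the axis. The calgranulins lie at 762 TPM or more in 4 groups and at 15.9 TPM or less in ECs+ implantation, while CSF3R and MMP8 reach at most 7.96 TPM.

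Against normal tissue, defect tissue held more of all 5 transcripts. In edgeR's quasi-likelihood test, with p-values adjusted by Benjamini-Hochberg over 17855 genes and a threshold of 0.05, the log2 fold change of S100A8 was 1.90 ± 0.079 (SE, adjusted p = 2.51e-38), a 3.74-fold rise from 884 ± 27.6 to 2919 ± 295 TPM (mean ± SD, n = 3). S100A9 rose by 1.63 ± 0.081 on the log2 scale (adjusted p = 3.63e-31), from 776 ± 23.2 to 2162 ± 283 TPM. S100A12 rose by 1.32 ± 0.082 (adjusted p = 1.89e-25), from 3509 ± 93.0 to 8051 ± 1167 TPM. All 5 genes were called higher, where 32.0% of all genes tested were, beside 31.9% called lower and 63.9% in either direction. With library size as the only scaling the median over all genes moved by -0.366 on the log2 scale, calls split into 3456 higher and 8894 lower in place of 5715 and 5692, and the 3 calgranulins still rose, by 1.57, 1.33 and 1.02.

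Implantation A differed little from defect in these 3 genes and clearly from normal. Against normal, S100A8 rose by 1.31 ± 0.062 (SE), S100A9 by 1.27 ± 0.065 and S100A12 by 1.05 ± 0.066 on the log2 scale, with the largest adjusted p at 2.87e-24. Of the 5 genes 4 were called higher, against 32.2% of all genes higher, 32.3% lower and 64.5% in either direction, and MMP8 did not pass. From defect to implantation A, S100A8 fell by 0.59 ± 0.077 (adjusted p = 2.09e-10) with no overlap between the libraries. S100A9 fell by 0.36 ± 0.080 (adjusted p = 9.53e-05) and S100A12 by 0.27 ± 0.081 (adjusted p = 0.0042), but the libraries of both genes overlapped between the groups. All 5 genes were called lower in implantation A than in defect, where 21.4% of all genes were, beside 20.4% called higher and 41.8% in either direction.

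The falls from defect to implantation A depended on defect 3 for all 3 calgranulins, on the scaling for S100A9 and S100A12, and for S100A12 also on implantation A 3. Mean TPM of S100A12 was slightly higher in implantation A, at 8231 ± 214 against 8051 ± 1167 (SD, n = 3). With library size alone, which moved the median of all genes by 0.305 and split the calls into 7931 higher and 1761 lower in place of 3642 and 3823, the log2 fold change was -0.12 for S100A9 (adjusted p = 0.0527) and -0.03 for S100A12 (adjusted p = 0.71). Without defect 3 it was -0.19 for S100A8 (adjusted p = 0.555), 0.01 for S100A9 (adjusted p = 0.978) and 0.08 for S100A12 (adjusted p = 0.714), so none of the 3 passed. Without implantation A 3 the fall of S100A12 was no longer called, at -0.22 (adjusted p = 0.0685).

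Of the 4 comparisons of the design, that of ECs+ implantation with implantation B held the largest differences in the 3 calgranulins. Pooled over the 3 libraries of each group, S100A8 had 4 counts against 10938 and was 2701-fold lower by library size (exact 95% interval 1055 to 9915, counting error only). S100A9 had 45 counts against 30362, 667-fold lower (498 to 914), and S100A12 had 43 against 31651, 727-fold lower (540 to 1005). The fitted log2 fold changes were -11.50 ± 0.65 (SE), -9.61 ± 0.22 and -9.73 ± 0.19, with the largest adjusted p at 1.15e-41. Ordered from the lowest fold change of 17204 genes, S100A8 stood at place 13, S100A12 at 34 and S100A9 at 36. CSF3R, described next, was also called lower, so 4 of the 4 members tested were, against 38.1% of all genes lower, 37.8% higher and 75.8% in either direction. Library size alone moved the median of all genes by 0.238 and split the calls into 8687 higher and 4894 lower in place of 6501 and 6547.

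CSF3R followed another order. It stood at 0.222, 0.399 and 0.283 TPM in normal (8, 14 and 10 counts) and at 7.96, 2.24 and 6.70 TPM in defect (3, 1 and 212 counts). In implantation A it stood at 0.680, 0.977 and 1.10 TPM, in implantation B at 2.19, 2.46 and 2.28 TPM and in ECs+ implantation at 0.760, 1.05 and 0.695 TPM (34, 46 and 32 counts). Normal was lowest without overlap, defect and implantation B were highest, and ECs+ implantation overlapped implantation A.

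From normal to defect CSF3R rose by 4.61 ± 0.324 on the log2 scale (SE, adjusted p = 2.35e-27), 24.4-fold, and without defect 3, which leaves 4 defect counts, by 3.94 (adjusted p = 0.00823). From defect to implantation A it fell by 3.13 ± 0.245 (adjusted p = 4.97e-21), and without defect 3 by 2.46, which did not pass (adjusted p = 0.136). Implantation A still held more than normal, by 1.47 ± 0.325 (adjusted p = 1.82e-05). On log2 of TPM plus 1 that difference was 0.56 and did not pass (adjusted p = 0.375). In ECs+ implantation CSF3R differed from implantation B by -1.22 ± 0.21 (adjusted p = 7.78e-07), 112 counts against 224. It stood at place 2119 of 17204 in the order that held the calgranulins in places 13 to 36.

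The 5 genes form 2 classes, the calgranulins and CSF3R with MMP8. In ECs+ implantation against normal the calgranulins and CSF3R moved opposite ways, and MMP8 rested on few counts. CSF3R was higher by 1.85 ± 0.32 (SE, adjusted p = 7.86e-08), while S100A8 was lower by a log2 fold change of -9.74 ± 0.753, S100A9 of -7.79 ± 0.294 and S100A12 of -8.21 ± 0.269. MMP8 was called higher by 2.61 ± 1.34, from 14 counts against 2 that were both in normal 3. Its 95% interval from the SE ran from -0.0158 to 5.24. It lost its call in 6 of 23 alternative analyses, among them DESeq2 and leaving out normal 1, normal 2 or ECs+ implantation 1. All 5 genes were thus called in this pair, where 71.3% of all genes were, 35.7% higher and 35.6% lower. The other neutrophil genes described below did not rise as a group. Of 20 tested in this pair 6 were higher and 6 lower, with a median of -0.07 against -0.02 over all genes. Pooled counts of CSF3R were 112 in ECs+ implantation and 32 in normal, a ratio of 3.37 (exact 95% interval 2.26 to 5.16). On log2 of TPM plus 1 the rise of CSF3R was 0.49 and did not pass (adjusted p = 0.21).

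MMP8 was close to the detection limit outside defect. Its counts were 0, 0 and 2 in normal, 3, 1 and 33 in defect, 1, 4 and 2 in implantation A, 8, 1 and 13 in implantation B and 9, 1 and 4 in ECs+ implantation. The defect libraries stood at 7.35, 2.07 and 0.963 TPM, above every other library, of which the highest was implantation B 3 at 0.352 TPM. A single count in the shallow defect 2 gave its 2.07 TPM. Pooled, defect had 37 counts and normal 2, a ratio of 53.4 (exact 95% interval 13.8 to 458). The fitted rise of 5.90 ± 1.08 on the log2 scale (SE, adjusted p = 5.25e-13) rests on those 2 counts in normal. MMP8 fell by 4.37 ± 0.643 from defect to implantation A (adjusted p = 8.43e-11).

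For the other comparisons of MMP8 the counts set the limit. Between implantation A and normal the log2 fold change was 1.53 ± 1.17 (SE) and did not pass (adjusted p = 0.15), with 7 and 2 counts and a pooled ratio of 3.21 (exact 95% interval 0.61 to 31.6). Without normal 3, the only normal library with a count, the difference of 7 from 0 counts passed (adjusted p = 0.0148). MMP8 was too rare to be tested in the fit of ECs+ implantation and implantation B, where 14 counts against 22 gave a ratio of 0.644 (0.305 to 1.32).

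**Figure D2:**
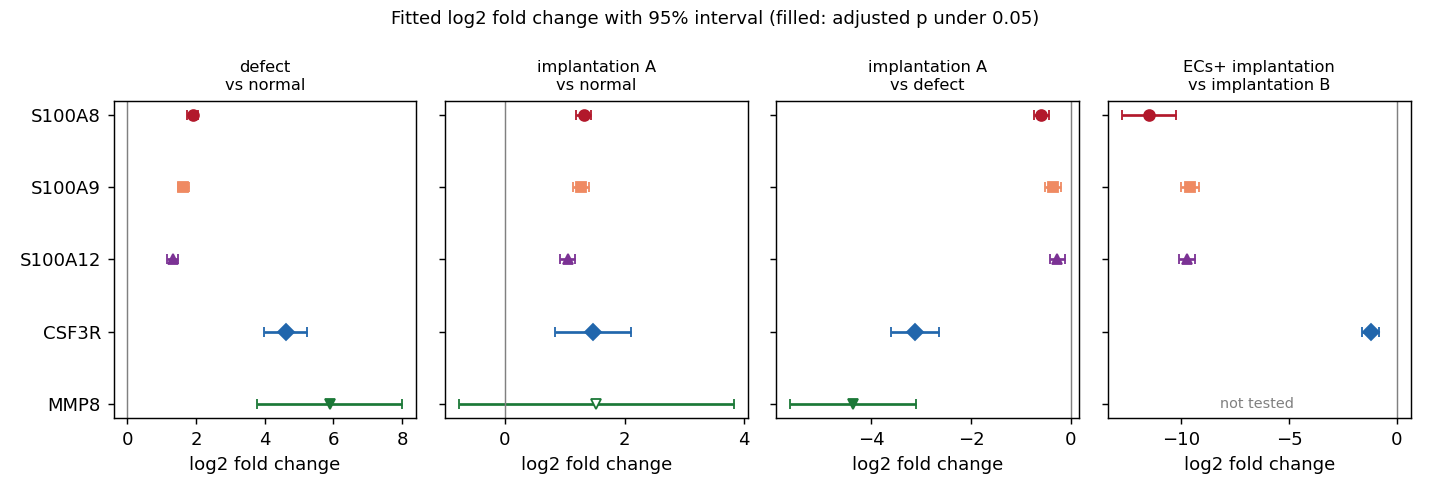
Fitted log2 fold changes of the 5 genes in the 4 comparisons of the design, with 95% intervals, on separate axes. Filled symbols passed an adjusted p of 0.05. In the comparison of ECs+ implantation with implantation B the calgranulins stand between -11.50 and -9.61 and CSF3R at -1.22, and MMP8 was not tested.

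Neighbours in the order of mean TPM were compared in a fit of all 15 libraries. S100A8 ran from defect through implantation B, implantation A and normal to ECs+ implantation, and each neighbour was called different. Defect and implantation B, at 2919 ± 295 and 2893 ± 39.7 TPM, overlapped, and defect was higher by 0.21 ± 0.063 on the log2 scale (adjusted p = 0.00721). S100A9 was highest in implantation B, at 2571 ± 27.5 TPM, which did not pass against defect (0.11 ± 0.072, adjusted p = 0.257) although its libraries lay above those of defect. S100A12 was highest in implantation B, at 9757 ± 73.6 TPM, and did not pass against defect either (0.14 ± 0.064, adjusted p = 0.103). With library size alone S100A12 passed there, at 0.15 (adjusted p = 0.0119). Without defect 3, S100A9 at 0.51 and S100A12 at 0.52, as implantation B minus defect, passed. S100A8 at 0.21, now higher in implantation B and so reversed, CSF3R at -0.90 and MMP8 at -4.24 did not. Without normal 3, S100A12 passed at 0.11. Between implantation B and defect 29.5% of all genes were called, 15.7% higher and 13.8% lower.

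All 5 genes were called higher in implantation B than in implantation A, where 27.2% of all genes were, beside 23.6% called lower and 50.8% in either direction. The log2 differences were 0.39 ± 0.047 (SE) for S100A8, 0.50 ± 0.056 for S100A9, 0.43 ± 0.05 for S100A12, 1.55 ± 0.219 for CSF3R and 1.88 ± 0.798 for MMP8 (adjusted p = 0.0257). On log2 of TPM plus 1 none of these 5 passed. Each calgranulin and CSF3R lost its call in 2 of 24 alternative analyses. With library size alone the median of all genes moved by -0.247, calls split into 2383 higher and 8512 lower in place of 4978 and 4329, and MMP8, at 1.63, did not pass. MMP8 also did not pass without implantation A 1 or 3 or implantation B 1 or 3, and lost its call in 8 of 23 alternative analyses in all. Against normal, implantation B held more of all 5 genes, by 1.71 ± 0.051 for S100A8, 1.77 ± 0.0577 for S100A9, 1.48 ± 0.0511 for S100A12, 3.03 ± 0.304 for CSF3R and 3.42 ± 1.31 for MMP8. That of MMP8, 22 counts against 2 that were both in normal 3, was 5.77 without normal 3, a fitted value against 0 counts and so no bound, and did not pass on log2 of TPM plus 1 (0.23) or plus 0.1 (1.22). There 37.1% of all genes were called higher, 36.7% lower and 73.8% in either direction, and with library size alone the median moved by -0.311 and the split was 4629 and 9431 in place of 6796 and 6715. CSF3R ran from defect through implantation B, implantation A and ECs+ implantation to normal. Its only neighbours that did not pass were implantation A and ECs+ implantation, at 0.919 ± 0.216 and 0.835 ± 0.189 TPM, where the fitted log2 difference was 0.37 ± 0.24 higher in ECs+ implantation (adjusted p = 0.162). In that pair 70.4% of all genes were called, 36.9% higher and 33.5% lower. From defect to ECs+ implantation all 5 genes were called lower, where 29.7% of all genes were, beside 32.6% called higher and 62.3% in either direction. CSF3R differed there by -2.76 ± 0.238 and did not pass without defect 3 (-2.09, adjusted p = 0.116). MMP8 was higher in defect than in implantation B by 2.54 ± 0.581 (adjusted p = 4.46e-04). Each later neighbour in its order, implantation B, ECs+ implantation, implantation A and normal, did not pass.

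Ratios within a library need no scaling for its depth, though a rare gene makes them coarse in a shallow library. S100A8 and S100A9, whose proteins pair, kept a TPM ratio between 1.06 and 1.58 in the 12 libraries outside ECs+ implantation. S100A12 stood 3.65 to 4.73 times above S100A9 in the same libraries. In ECs+ implantation the S100A8 to S100A9 ratio was 0.245, 1.14 and 0.136, from 1, 2 and 1 counts of S100A8. Against implantation B the difference was -1.74 on the log2 scale (exact two-sided permutation test, p = 0.4, n = 3 against 3, where the smallest possible p is 0.1).

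The ratio of S100A8 plus S100A9 to CSF3R set the 2 classes against each other. It was 7467, 4190 and 5826 in normal, 617, 2118 and 833 in defect, 6761, 4725 and 4096 in implantation A and 2480, 2251 and 2385 in implantation B. In ECs+ implantation it was 4.54, 2.49 and 7.78. Each ECs+ implantation library thus held fewer than 8 transcripts of S100A8 and S100A9 for each CSF3R transcript, where every other library held 617 or more. The log2 difference from implantation B was -9.06, between means of 2.15 ± 0.823 and 11.2 ± 0.0702 (SD, n = 3), without overlap (exact permutation test, p = 0.1, the smallest possible). Defect lay below normal by a log2 difference of -2.46 without overlap, but CSF3R had only 3 and 1 counts in defect 1 and 2. In defect 2 a single count already gave 2.24 TPM, above every normal library. The shallow depth thus kept the ratio of these libraries low, and their separation from normal is no separate evidence. In defect 3, with 212 counts, the ratio was 833. Implantation A differed from normal by -0.16 with overlap (exact p = 0.7).

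**Figure D3:**
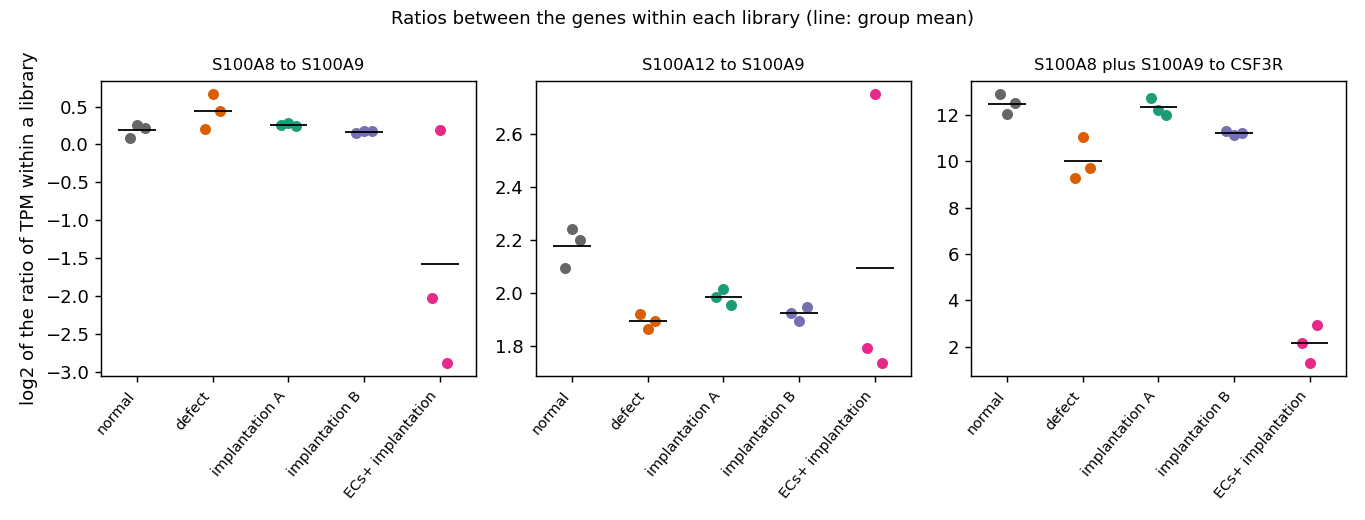
Log2 of the TPM ratios S100A8 to S100A9, S100A12 to S100A9 and S100A8 plus S100A9 to CSF3R in each library, by group, with lines at group means and a separate axis for each ratio. In the last panel ECs+ implantation lies at a mean of 2.15 and the other groups between 10.01 and 12.5.

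The summed level of squamous epithelial genes was, as for the calgranulins, lowest in ECs+ implantation, then in normal, and higher in the other groups, but single markers differed in direction. The summed level of 29 squamous and urothelial markers was 1994 ± 65.5 TPM in normal, 4741 ± 173 in defect, 4394 ± 31.8 in implantation A, 4651 ± 36.1 in implantation B and 146 ± 1.45 in ECs+ implantation (SD, n = 3). KRT5, the keratin of basal epithelial cells, stood at 526 ± 23.7 TPM in normal, 1712 ± 42.3 in defect, 1294 ± 11.05 in implantation A and 1232 ± 22.0 in implantation B. In ECs+ implantation it had 4 counts, all in 1 library. The ratio of S100A8 plus S100A9 to KRT5 ran from 2.80 to 4.50 in the 12 libraries outside ECs+ implantation, and it differed between groups. It was 2.80 to 3.25 in defect, 3.05 to 3.31 in normal, 3.50 to 3.56 in implantation A and 4.36 to 4.50 in implantation B. In the 1 ECs+ implantation library with KRT5 counts it was 19.2, from few counts. The part of epithelial RNA in the calgranulin differences was not tested. For the list counts below, 32.0% of all genes were called higher and 31.9% lower in defect than in normal. From defect to implantation A these shares were 20.4% and 21.4%, and from normal to implantation A 32.2% and 32.3%. In ECs+ implantation against implantation B they were 37.8% and 38.1%. Without defect 3, calls over all genes fell from 11407 to 3521 between defect and normal. Between implantation A and defect they fell from 7465 to 1455.

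Between ECs+ implantation and implantation B, 1 of 24 squamous markers tested was higher and 21 were lower, with a median log2 fold change of -5.82 against 0.02 over all genes. KRT4, a keratin of mucosal epithelium, fell by 12.23 ± 0.232 (SE), KRT6A, a keratin of injured epithelium, by 13.68 ± 0.901, the desmosomal cadherin DSG3 by 9.05 ± 0.391 and PERP, a desmosomal membrane protein, by 6.53 ± 0.123. KRT15 had 0 counts in ECs+ implantation and 5193 in implantation B, lower by at least 1710-fold when 3 counts are taken as the limit for the whole group. CRNN, cornulin of the epidermal differentiation complex, fell by 10.37 ± 0.794.

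Between defect and normal 15 of 26 squamous markers were higher and 8 lower, with a median of 0.80 against -0.05 over all genes. KRT6A rose by 3.38 ± 0.0735 (SE), DSG3 by 2.34 ± 0.0857, the desmosomal cadherin DSC2 by 2.14 ± 0.083 and KRT5 by 1.79 ± 0.0789. KRT4 (-0.74, adjusted p = 6.24e-12) and CRNN (-0.85, adjusted p = 1.63e-10), named here after their values were seen, fell while the calgranulins rose. Without defect 3 the counts were 10 higher and 2 lower. Implantation A held more of 22 of 26 than normal and less of 2, and against defect 12 were higher and 9 lower, or 5 and 3 without defect 3. There KRT6A fell by 3.01 ± 0.073, and KRT15 rose by 2.88 ± 0.0991 and KRT4 by 1.64 ± 0.0877, while KRT5 fell by 0.60 ± 0.0785. KRT13, KRT14, KRT16 and KRT17 were not analysed here.

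Other neutrophil genes did not share one course. Their 27 rows summed to 319 ± 7.44 TPM in normal, 686 ± 28.0 in defect, 446 ± 7.87 in implantation A, 699 ± 8.46 in implantation B and 266 ± 4.45 in ECs+ implantation (SD, n = 3). A large share of that sum was LCN2, lipocalin 2, which epithelium also makes, at 181 ± 4.89 TPM in normal, 397 ± 6.83 in defect, 274 ± 5.44 in implantation A, 463 ± 6.06 in implantation B and 127 ± 4.87 in ECs+ implantation. MPO, myeloperoxidase of the primary granules, had a group mean of at most 0.119 TPM, and the antimicrobial peptide gene NPG1 stood at 0 TPM throughout. CXCR1, FPR1, CAMP and CEACAM8 were not analysed here.

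Of the 20 neutrophil markers tested between defect and normal 14 were higher and 3 lower, with a median of 1.30 against -0.05 over all genes. Without defect 3 these counts were 6 and 1, while calls over all genes fell from 11407 to 3521. MMP9, the gelatinase of neutrophils and other cells, rose by 6.78 ± 0.249 (SE), from 0.661 ± 0.294 to 60.7 ± 6.54 TPM. GP91-PHOX, a subunit of the phagocyte oxidase, rose by 3.00 ± 0.189 and ITGAM, the integrin chain CD11b, by 1.54 ± 0.184. The 3 called lower, named here after their values were seen, were PGLYRP1 (-1.11, adjusted p = 2.95e-05), MMP25 (-0.87, adjusted p = 3.07e-05) and OLFM4. Mean TPM of PGLYRP1 went the other way, at 43.45 in defect against 36.19 in normal. OLFM4 had 0 counts in defect and 25 in normal. ELANE (-0.85, adjusted p = 0.0763) and PRTN3 (-0.51, adjusted p = 0.0507) did not pass. CXCR2, the chemokine receptor of neutrophils, was called higher by 1.34 ± 0.474 (adjusted p = 0.0114), but stood lower on log2 of TPM plus 1, at -0.18, and did not pass with library size alone (0.97, adjusted p = 0.0675). All 20 of its defect counts were in defect 3.

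Of the 20, 3 were higher in implantation A than in defect and 13 lower, and without defect 3 these counts were 1 and 2. MMP9 fell by 2.80 ± 0.115, GP91-PHOX by 2.27 ± 0.172 and the leukocyte integrin chain ITGB2 by 1.34 ± 0.105 (SE). Without defect 3 GP91-PHOX, at -1.40 (adjusted p = 0.279), and ITGB2, at -0.97 (adjusted p = 0.0828), did not pass. Against normal 7 were higher and 5 lower, where 32.2% of all genes were higher and 32.3% lower. CXCR2 did not pass there (-0.17 ± 0.414, adjusted p = 0.732). In ECs+ implantation 4 of 19 were higher than in implantation B and 11 lower, with a median of -1.11 against 0.02 over all genes. LCN2 fell by 1.65 ± 0.0366, GP91-PHOX by 2.51 ± 0.147 and CXCR2 by 1.76 ± 0.48. MMP9 had 0 counts against 316, at least 104-fold lower, while ITGAM differed by -0.06 ± 0.12 (adjusted p = 0.682), and by 0.18 with library size alone.

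Macrophage genes, whose cells can also express calgranulins and CSF3R, rose in defect too. The 23 markers summed to 1137 ± 28.9 TPM in normal, 2393 ± 223 in defect, 1183 ± 10.4 in implantation A, 2234 ± 17.4 in implantation B and 1180 ± 20.2 in ECs+ implantation (SD, n = 3). Their part in the levels of CSF3R and the calgranulins was not tested. All 21 tested were higher in defect than in normal and all 21 lower in implantation A than in defect, and without defect 3 these counts were 7 and 12. LYZ, lysozyme, rose by 7.45 ± 0.22 and fell by 5.34 ± 0.129 (SE). The scavenger receptor CD163 rose by 1.78 ± 0.0922 and fell by 2.53 ± 0.0962, to below its normal level (-0.75 ± 0.0809). In ECs+ implantation 2 of 22 were higher than in implantation B and 18 lower, with CD163 down by 2.94 ± 0.0679 and CSF1R, the macrophage growth factor receptor, by 2.04 ± 0.0357.

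**Figure D4:**
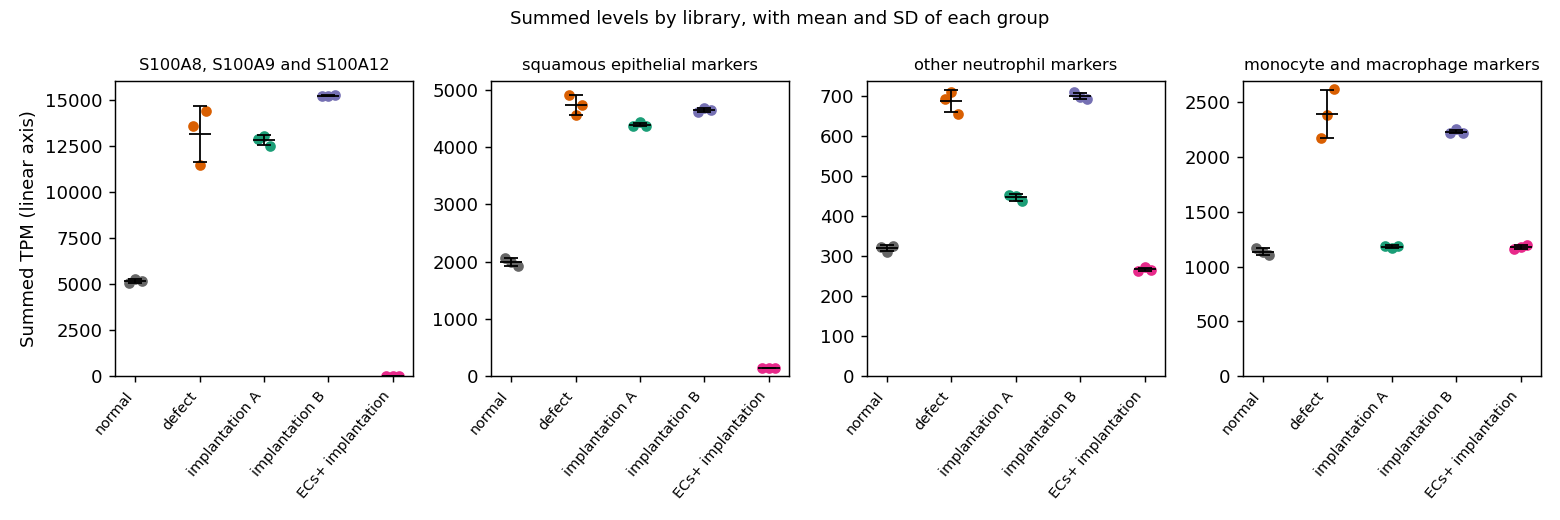
Summed TPM by library of the 3 calgranulins, the squamous epithelial markers, the other neutrophil markers and the monocyte and macrophage markers (linear axes from 0, separate for each panel), with group mean and SD. ECs+ implantation is near 0 in the calgranulin panel and at 146 TPM in the squamous panel, and at 266 and 1180 TPM in the other 2, where normal stands at 319 and 1137 TPM.

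Among the ligands that act on neutrophils, AMCF-II and CXCL8 rose in defect, while CSF3, the ligand of the CSF3R protein, and the chemokine gene CXCL2, named here after its values were seen (0.61, adjusted p = 0.117), did not pass. CSF3 held 8.34 ± 1.29 TPM in normal tissue and 8.74 ± 8.52 TPM in defect (SD, n = 3). The fitted difference, 0.10 ± 0.221 on the log2 scale (SE, adjusted p = 0.711), was -0.27 with library size alone and -0.71 on log2 of TPM plus 1. In implantation A it was 3.81 ± 0.757 TPM, lower than in normal by a log2 fold change of -1.27 ± 0.179. AMCF-II, a pig CXC chemokine that attracts neutrophils, had 0 counts in normal and 819 in defect, at least 788-fold higher. CXCL8, the interleukin 8 gene, rose by 6.28 ± 1.06, from 0.0472 ± 0.0818 to 5.37 ± 1.40 TPM, and fell by 4.27 ± 0.551 in implantation A.

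Of 19 genes tested of the G-CSF axis and the neutrophil chemoattractants, 13 were higher in defect than in normal and 1 lower, and without defect 3, of 18 tested, 5 and 2. SOCS3, an inhibitor induced by cytokine receptors, rose by 3.07 ± 0.101 (SE) and RUNX1, a blood transcription factor, by 3.69 ± 0.112. From defect to implantation A 1 was higher and 12 lower, and without defect 3, of 18, 1 and 3. Against normal 9 were higher in implantation A and 5 lower. Between ECs+ implantation and implantation B 3 of 19 were higher and 13 lower. STAT3, which carries the CSF3R signal, fell by 1.41 ± 0.0392, and JAK1 by 0.69 ± 0.0273. There CSF3 was higher by 0.67 ± 0.17 (adjusted p = 4.26e-04), at 6.11 ± 0.772 against 5.199 ± 0.566 TPM, and CXCL8 did not pass (0.41 ± 0.257, adjusted p = 0.138), except without ECs+ implantation 1 (0.66, adjusted p = 0.0145).

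Calprotectin signals through TLR4 and S100A12 through AGER. Of 17 receptor and TLR4 pathway genes 8 were higher and 4 lower in defect than in normal, and without defect 3 these counts were 2 and 1. TLR4 rose by 1.93 ± 0.129 (SE), from 6.04 ± 0.81 to 23.8 ± 7.37 TPM (SD, n = 3), and fell by 1.33 ± 0.123 in implantation A. LY96, the TLR4 co-receptor, was called higher by 2.13 ± 0.217, but was lower, at -0.91, on log2 of TPM plus 0.1 and did not pass without defect 3 (0.65, adjusted p = 0.721). AGER, named here after its values were seen, was lower in defect than in normal (-1.62, adjusted p = 0.00727), at 0.188 against 2.03 TPM. It did not pass from defect to implantation A (1.16, adjusted p = 0.0914). Of the 17, 2 were higher in implantation A than in defect and 7 lower, and without defect 3 these counts were 1 and 2. Against normal 4 were higher in implantation A and 5 lower, where 32.2% of all genes were higher and 32.3% lower. In ECs+ implantation TLR4 fell against implantation B by 1.04 ± 0.0661 while LY96 rose by 1.80 ± 0.116 and the scavenger receptor CD36 by 1.33 ± 0.0625. AGER was higher there by 1.74 (adjusted p = 3.52e-04), opposite to S100A12. Of the 17, 6 were higher there and 8 lower, where 37.8% of all genes were higher and 38.1% lower.

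In defect the collagenase transcripts MMP13 and MMP1 were more abundant than MMP8. MMP13, a collagenase of fibroblasts and other stromal cells, rose from 0.115 ± 0.0621 TPM in normal to 137 ± 8.57 in defect (SD, n = 3), by 9.94 ± 0.432 on the log2 scale (SE). MMP1, the interstitial collagenase, rose by 5.67 ± 0.13, from 3.53 ± 0.3 to 157 ± 3.73 TPM, beside 3.46 ± 3.41 TPM of MMP8, which was 0.963 TPM in defect 3, the library with 33 of its 37 counts. In ECs+ implantation, by contrast, MMP13 stood at 0.0908 TPM, MMP1 at 0.21 and MMP8 at 0.0956. From defect to implantation A MMP13 fell by 7.96 ± 0.222 and MMP1 by 2.53 ± 0.0861. Of 11 collagenases, gelatinases and their inhibitors, 10 rose and 1 fell in defect, 2 rose and 9 fell from defect to implantation A, and 9 rose and 0 fell from normal to implantation A. In ECs+ implantation 3 were higher than in implantation B and 8 lower, with MMP1 down by 7.25 ± 0.353 and MMP13 by 2.79 ± 0.575.

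Most tested neighbours of the calgranulins on chromosome 4 did not fall with them in ECs+ implantation against implantation B. Within 300 kb of the start of S100A12 the tables hold 29 genes, and 14 besides the calgranulins were tested between ECs+ implantation and implantation B. Of these 9 were higher and 4 lower, where 37.8% of all genes were higher and 38.1% lower. S100A1, of striated muscle, was higher by 3.37 ± 0.0808 (SE), S100A16 by 0.98 ± 0.0302 and S100A6, calcyclin, by 0.42. Among those lower were PGLYRP3, an antibacterial peptidoglycan-binding protein whose gene starts 36.1 kb from that of S100A12, at -4.70, and the epithelial S100A2 at -3.06 ± 0.0555. Of 13 S100 genes other than the calgranulins, 9 were higher and 4 lower.

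Between defect and normal 6 of the 14 neighbours tested were higher and 4 lower, where 32.0% of all genes were higher and 31.9% lower. S100A4, of fibroblasts and leukocytes, rose by 2.37 ± 0.0988 (SE), S100A2 by 1.97 ± 0.0987 and S100A6 by 1.63 ± 0.076, beside 1.90 for S100A8. Of 12 other S100 genes 6 were higher and 4 lower, and without defect 3 these counts were 3 and 3. Of 8 genes of the epidermal differentiation complex 5 were higher and 2 lower, with SPRP, a cornified envelope precursor, up by 9.20 ± 1.46, from 0.0708 ± 0.123 to 51.5 ± 14.5 TPM. Without defect 3, of 7 tested, 1 was higher and 2 lower.

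**Figure D5:**
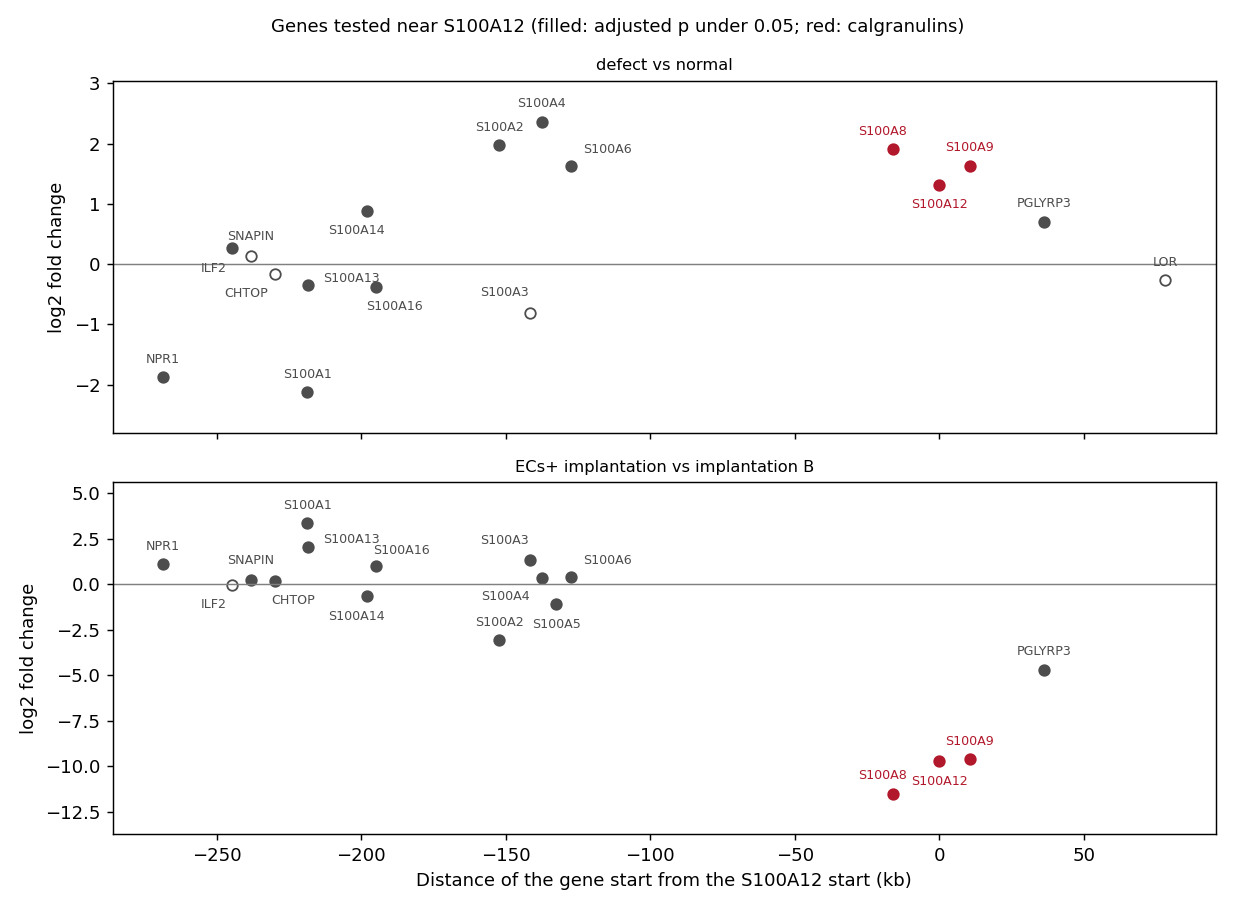
Log2 fold changes of the genes tested near S100A12 against the distance of their starts from its start in kb, for defect and normal (top) and for ECs+ implantation and implantation B (bottom). Filled points passed an adjusted p of 0.05 and red points are the calgranulins. In the bottom panel the calgranulins lie near -10, next to PGLYRP3 at -4.70, and the S100 genes on the left lie between -3.06 and 3.37.

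The genes whose log2 CPM followed each member most closely were sought among 13698 genes over the 13 libraries of high depth, which fall into the same 5 groups and include the 3 of ECs+ implantation. For S100A8 they were NFAT5, DSP, LAD1 and TRIM29 (Pearson r from 0.9975 to 0.9988), for S100A9 FAT2, SFN, TMEM79 and UGT1A6 and for S100A12 DSP, SFN, UGT1A6 and NECTIN4. DSP is desmoplakin of desmosomes and SFN, stratifin, is an epithelial 14-3-3 protein. SFN stood at 114 TPM in normal, 258 in defect, 238 in implantation A, 290 in implantation B and 2.29 in ECs+ implantation, and its r with S100A9 was 0.997 with or without ECs+ implantation. For the other genes named for the calgranulins r was lower over the 10 libraries without ECs+ implantation. It ran from 0.874 (UGT1A6 with S100A12) to 0.977 (FAT2 with S100A9). The nearest genes to CSF3R were FAP, THBS4, CTNNB1 and DPYD (r from 0.975 to 0.983), with FAP, a protease of activated fibroblasts, at 16.8 TPM in normal, 157 in defect, 37.7 in implantation A, 63.5 in implantation B and 33.6 in ECs+ implantation. For MMP8, at few counts, r was at most 0.918.

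How closely the 2 classes ran together depended on the ECs+ implantation libraries. The calgranulins correlated with each other at r between 0.994 and 0.998 over the 13 libraries, and at 0.993 to 0.998 over the 10 without ECs+ implantation, a set chosen after the values were seen. Their r with CSF3R was 0.13 to 0.156 over the 13 and 0.883 to 0.907 over the 10. With KRT5 it was 0.987 to 0.997 over the 13 and 0.961 to 0.986 over the 10. With KRT4 it fell from between 0.985 and 0.991 over the 13 to between 0.494 and 0.581 over the 10. CSF3R and MMP8 correlated at 0.778 over the 13 and 0.837 over the 10. CSF3R correlated with KRT5 much as with the calgranulins, at 0.1082 and 0.9025. The r of the calgranulins with MMP8 was 0.0718 to 0.101 over the 13 and 0.647 to 0.6885 over the 10. Among the 10, defect 3 is the only defect library.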

How the data were processed

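Polyadenylated RNA went into TruSeq v2 libraries, per the labels' protocols. Sscrofa11.1 is the build, and HISAT2, HTSeq, fastp and DESeq2 the tools, listed in the submitters' processing notes. The authors deposited raw gene counts and TPM values. How TPM was computed and whether counting used strand are not given in the sources used here.

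The members and gene lists were chosen with earlier results of these data known. Counts were fitted with edgeR 4.0.16 in R 4.3.3 (filterByExpr, TMM, robust glmQLFit, glmQLFTest, two-sided, Benjamini-Hochberg, threshold 0.05): 9 libraries for normal, defect and implantation A, 6 for implantation B and ECs+ implantation, and all 15 for other pairs. SEs are Wald values and p-values come from the F test. Levels are deposited TPM. Pooled-count ratios use library totals with Clopper-Pearson 95% intervals, which cover counting error only. List medians were the same in the 4 comparisons of the design with genes at 0 counts in a group set to a floor of 3 counts over the group. Besides the members, genes were named by rule: up to 3 of each list with the smallest p, plus genes chosen by name, and 4 likeness genes a member. Gene positions come from RefSeq, which held 99.9% of the symbols. Older symbols were matched through its synonyms.

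Replicate pairs within a group differed by more than sampling noise, so none was counted as a duplicate. Their chi-square per degree of freedom ran from 1.25 to 5.46, which does not show whether they came from different pigs. Replicate numbers did not pair libraries (correlations of deviations -0.0212 to 0.0215). The scripts were tested on simulated data. Alternatives were DESeq2 1.42.0, limma 3.58.1 (voom with quality weights, or log2 of TPM plus 1 or 0.1), other scalings, filters and library sets, a replicate block, thinned counts and leaving out each library.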

Additional observations from a re-analysis of the deposited data

How the results depend on the processing

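All 5 genes kept their direction and call between defect and normal, and the 4 tested genes between ECs+ implantation and implantation B, under each alternative that gave a value. MMP8 was not tested without defect 3. The other calls were less stable, above all those that rest on defect 3 or on few counts, and the cause was not tested except where fewer libraries or counts entered by construction. Log2 fold changes are given below unless stated.

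With library size alone, S100A9 stood at -0.12 and S100A12 at -0.025 from defect to implantation A, MMP8 at 1.63 from implantation A to B and S100A12 at 0.15 from defect to implantation B. CSF3 stood at -0.27 from normal to defect and ITGAM at 0.18 from implantation B to ECs+ implantation. With DESeq2's size factors in edgeR, CSF3 stood at -0.027. DESeq2 itself called 7460 genes between defect and normal, 3830 between implantation A and defect and 6936 between implantation A and normal. It gave CSF3 -0.0046, MMP8 1.86 from implantation A to B and 2.77 from normal to ECs+ implantation.

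On log2 of TPM plus 1, S100A9 stood at -0.0487 and S100A12 at 0.0423 from defect to implantation A, as they did with plus 0.1. CXCR2 stood at -0.18 and CSF3 at -0.71 from normal to defect, and CXCR2 at 0.14 and LY96 at 0.16 from defect to implantation A. Between implantation A and normal 3299 genes were called and CSF3R stood at 0.56. From implantation A to B the 5 genes stood at 0.21 (S100A8), 0.31 (S100A9), 0.25 (S100A12), 0.79 (CSF3R) and 0.17 (MMP8). MMP8 stood at 0.23 from normal to implantation B and 0.10 from normal to ECs+ implantation, and S100A8 at -0.0078 from defect to implantation B. CSF3R stood at 0.49 from normal to ECs+ implantation and at -0.063 from implantation A to ECs+ implantation. With plus 0.1, CXCR2, CSF3 and LY96 stood at -1.18, -1.73 and -0.91 from normal to defect and at 1.05, 0.62 and 1.19 from defect to implantation A. Between implantation A and normal 2954 genes were called and CSF3R stood at 1.34. From implantation A to B the calgranulins stood again at 0.21, 0.31 and 0.25, CSF3R at 1.26 and MMP8 at 0.75. MMP8 stood at 1.22 from normal to implantation B and 0.68 from normal to ECs+ implantation. S100A8 stood at -0.0078 and CSF3R at -1.07 from defect to implantation B, and CSF3R at -0.12 from implantation A to ECs+ implantation.

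Voom with quality weights called 5353 genes between defect and normal and 1799 between implantation A and defect, where S100A9 stood at -0.34 and S100A12 at -0.25, and it gave MMP8 1.99 from normal to implantation A. Thinned to the shallowest total, the tables gave 2270 calls between defect and normal, 926 between implantation A and defect, 1386 between implantation A and normal and 1972 between ECs+ implantation and implantation B. From defect to implantation A the calgranulins then stood at -0.48, -0.27 and -0.19. With defect 3 as the only defect library, assumed to vary like the other groups, the log2 ratio of CSF3R to MMP8 differed by 1.26 between implantation A and defect. Replicate numbers share only a number, and with a replicate block S100A12 stood at -0.22 from defect to implantation A (adjusted p = 0.0585).

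Leaving out 1 library at a time, genes called between defect and normal ranged from 3521 to 11950 and between implantation A and defect from 1455 to 8485, both lowest without defect 3. From defect to implantation A, S100A8 ranged from -0.63 to -0.19, S100A9 from -0.44 to 0.0060, S100A12 from -0.35 to 0.078 and CSF3R from -3.28 to -2.46. MMP8 ranged from 0.94 to 3.83 between normal and implantation A, from 1.24 to 2.46 between implantation A and B and from 1.74 to 5.03 between normal and ECs+ implantation. From defect to implantation B, S100A8 ranged from -0.23 to 0.21, S100A9 from 0.056 to 0.51, S100A12 from 0.079 to 0.52, CSF3R from -1.62 to -0.90 and MMP8 from -4.24 to -2.08. CSF3R ranged from -2.95 to -2.09 between defect and ECs+ implantation. CXCR2 ranged from -5.92 to 1.51 between normal and defect, from -1.86 to 5.76 between defect and implantation A and from -0.52 to 0.17 between normal and implantation A. CSF3 ranged from -0.0048 to 0.25 between normal and defect and ITGAM from -0.14 to 0.030 between implantation B and ECs+ implantation. The log2 ratio of S100A8 plus S100A9 to CSF3R ranged from -0.38 to 0.039 between normal and implantation A, and that of CSF3R to MMP8 from -1.52 to 0.62 between implantation B and ECs+ implantation.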
